A study of Mus musculus with 15 samples.

Results

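The genes described here encode 34 enzymes of sugar metabolism, measured as RNA in brown preadipocytes treated with fibroblast growth factors (FGFs). They are 16 enzymes of glycolysis, 4 bifunctional enzymes of the Pfkfb family, 2 phosphoglucomutases, 7 enzymes of the pentose phosphate pathway and 5 enzymes of the hexosamine pathway. They were chosen by name, with earlier results of these data known, so counts of members are a description. For each gene symbol the transcript line with the highest mean over the 15 libraries was taken. All 34 were found among 29072 symbols, and all 34 were among the 13869 genes tested, which had at least 0.5 RPKM in at least 3 libraries. The lowest value of any member in any library was 1.06 RPKM, so no member entered the test only through a group in which it was high.

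Glycolysis turns glucose into pyruvate. Hexokinase traps glucose in the cell as a phosphate, phosphofructokinase makes the committed step, and the bisphosphate made by the Pfkfb enzymes switches phosphofructokinase on. The pentose phosphate pathway branches off after hexokinase: its oxidative arm makes NADPH, and its non-oxidative arm rearranges sugars and supplies ribose for nucleotides. The hexosamine pathway branches off one step later and ends in UDP-N-acetylglucosamine, the sugar donor for glycosylation. Brown fat is known as a tissue that takes up much glucose when it is active.

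The cells were a line of brown preadipocytes, the precursors of brown fat cells, grown out of the stromal-vascular cells of brown fat between the shoulder blades of 129SvEv mice, and all groups carried the SV40 large T antigen used to immortalise them. The 5 groups of 3 libraries were control cells (agent none), and cells given Fgf1, Fgf8b, FGF9 or Fgf8b with Bay-876 (BAY-876 blocks GLUT1, a carrier that lets glucose into cells). The design text gives 5.56 nM of each FGF for 48 h with 1 µg/ml heparin, and 2 µM BAY-876. The agent labels name heparin for FGF9 alone, and the sources used here do not give the medium and time of the control cells. No group is labelled as given heparin alone or BAY-876 alone, so effects of BAY-876 can be read only on top of FGF8b. Every difference between a treated group and control may also hold effects of heparin, medium or time. These cannot be told apart from effects of the FGF. Nothing in the labels tells if libraries of 1 group were grown as separate cultures, so p-values measure only the spread between these libraries, which may be technical.

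Depth per library, in M reads and with the values read as RPKM, was 31.6 to 37.5 (control), 27.01 to 32.05 (FGF1), 28.3 to 35.7 (FGF8b), 37.3 to 41.6 (FGF9) and 29.6 to 42.6 (FGF8b plus BAY-876). By lengths inferred from the values, the members had from 221 reads (Aldoc, 3 control libraries) to 112285 reads (Pgk1, 3 FGF9 libraries) per group. Levels are in RPKM, reads divided by transcript length in kilobases and by M reads of the library, and are given as mean ± SD (n = 3). All 9 preadipocyte and stromal markers were at 0.5 RPKM or more in every control, FGF1, FGF8b and FGF9 library, and 8 of 9 with BAY-876, where Lum was at 0.0563. The adipocyte markers Lep and Cfd and the muscle markers Myod1 and Myog were at 0 in every library, and Ptprc of leukocytes was at or under 0.0128. Other markers of these lists were present in every library. The adipocyte marker Fabp4 was at 4.99 to 9.27 RPKM and the muscle marker Acta1 at 3.99 to 8.45, each the larger part of its list's sum. The macrophage markers Itgam and Csf1r were at 1.34 to 3.67 and 0.771 to 1.48. The summed level of the 9 stromal markers was 2493 to 2820 RPKM in control, 1549 to 1575 in FGF1, 1275 to 1353 in FGF8b, 1337 to 1359 in FGF9 and 223 to 236 in FGF8b plus BAY-876. The markers did not move as one: the mean of Ly6a was 1015 RPKM in control, 245 in FGF1 and 52.7 in FGF8b, while that of Dcn was 474 in control, 273 in FGF1 and 806 in FGF8b, and that of Thy1 was 37.8, 48.0 and 62.8. With BAY-876 the means of all 9 lay below control, and all but Pdgfrb below FGF8b. The 5 endothelial markers summed to 7.63 to 8.98 in control, mostly Kdr at 6.18, and to 0.327 to 1.74 in the other groups. The summed levels of the adipocyte (4.99 to 9.27), muscle (4.72 to 11.1), macrophage (2.89 to 6.09, 4 of 5 markers listed) and neural (1.197 to 1.90) lists were low in every group, and the part of any of these differences in the results was not tested. In such bulk RNA, fewer cells of a kind and less RNA per cell cannot be told apart.

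FGF1 was accompanied by more RNA of most glycolysis enzymes and of all 5 hexosamine enzymes. Of the 34 members, 22 rose against control (64.7%, against 19.3% of all tested genes) and 2 fell, Eno2 and G6pdx (5.88%, against 15.1% of all tested genes), a count that became 4 with the lines of each gene summed. In glycolysis 13 of 16 rose, and in the pentose phosphate pathway none of 7 rose and G6pdx fell. The median log2 change of the members was 0.43, beside 0.02 for all tested genes, and 7 members rose by at least 1 on the log2 scale, a size that 1.24% of all tested genes reached upward. The groups of libraries did not overlap for 27 of the 34 members, beside 47.1% of all tested genes. Here changes are log2 differences of RPKM + 0.5, given ± SE from a limma fit over all genes, and a call is an adjusted p under 0.05. The calls of Pfkp and Pgm1 did not hold without some libraries. That of Pfkp was lost without control 1 or 2 or FGF1 2 or 3 (log2 change 0.23 to 0.24, adjusted p = 0.0676 to 0.0826), and that of Pgm1 was lost without control 2 or 3 or FGF1 1, 2 or 3 (log2 change 0.14 to 0.21, adjusted p = 0.0587 to 0.155), and also with trimmed-mean scaling (0.16, adjusted p = 0.0933).

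FGF8b and FGF9 also went with higher glycolysis RNA, while the pentose phosphate and hexosamine branches held both rises and falls. With FGF8b 18 of 34 members rose (52.9%, against 37.8% of all tested genes) and 7 fell (20.6%, against 26.6%). With FGF9 18 rose (52.9%, against 38.7%) and 8 fell (23.5%, against 27%). In both, 11 of 16 glycolysis enzymes and 3 of 7 pentose phosphate enzymes rose, and of the 5 hexosamine enzymes 2 rose and 2 fell. The rises of the pentose phosphate (42.9%) and hexosamine (40%) branches lay near the shares of all tested genes. So did the pentose phosphate falls (28.6%), while the hexosamine falls (40%) lay above but over only 5 genes. Nothing particular to these branches is read from their counts. The members' median log2 change was 0.38 with FGF8b and 0.34 with FGF9, beside 0.08 and 0.09 for all tested genes. A rise of at least 1 was seen for 7 members with FGF8b (against 4.87% of all tested genes) and 6 with FGF9 (against 5.61%), and the groups did not overlap for 27 and 26 members, beside 67.5% and 65.8% of all tested genes. The 3 FGF comparisons share the same control libraries, so their calls are given side by side and not counted together.

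Adding BAY-876 to FGF8b was accompanied by more RNA of pentose phosphate enzymes and of part of glycolysis. Against FGF8b, 15 of 34 members rose (44.1%, against 22.5% of all tested genes) and 3 fell (8.82%, against 34.8%). Of 7 pentose phosphate enzymes 5 rose and 2 were not called, of 16 glycolysis enzymes 8 rose and 2 fell (Pfkm and Pgk1), and of 5 hexosamine enzymes 1 fell (Gfpt1). The median log2 change was 0.17 for the members and -0.08 for all tested genes. Against control, cells with FGF8b and BAY-876 had 23 of 34 members higher (67.6%, against 36.8%) and 5 lower (14.7%, against 35.9%). The groups did not overlap for 18 members against FGF8b and 29 against control, beside 62.7% and 73.3% of all tested genes, and 3 (against 3.04%) and 10 (against 7.87%) rose by at least 1. Both comparisons move with the fall of the summed stromal markers to 223 to 236 RPKM, and the part of this fall in the result was not tested. The counts against FGF8b were uncertain. That of 3 falls was 7 without FGF8b 1, 6 without FGF8b plus BAY-876 3, and 5 without control 3, FGF9 1, FGF9 2 or FGF8b plus BAY-876 1. That of 15 rises ran from 10 to 16 over the fits that each left out 1 library. The rises of Gpi1, Gapdh, Pgam1, Pfkfb2 and Rpia lost their calls in some of these fits.

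**Figure D1:**
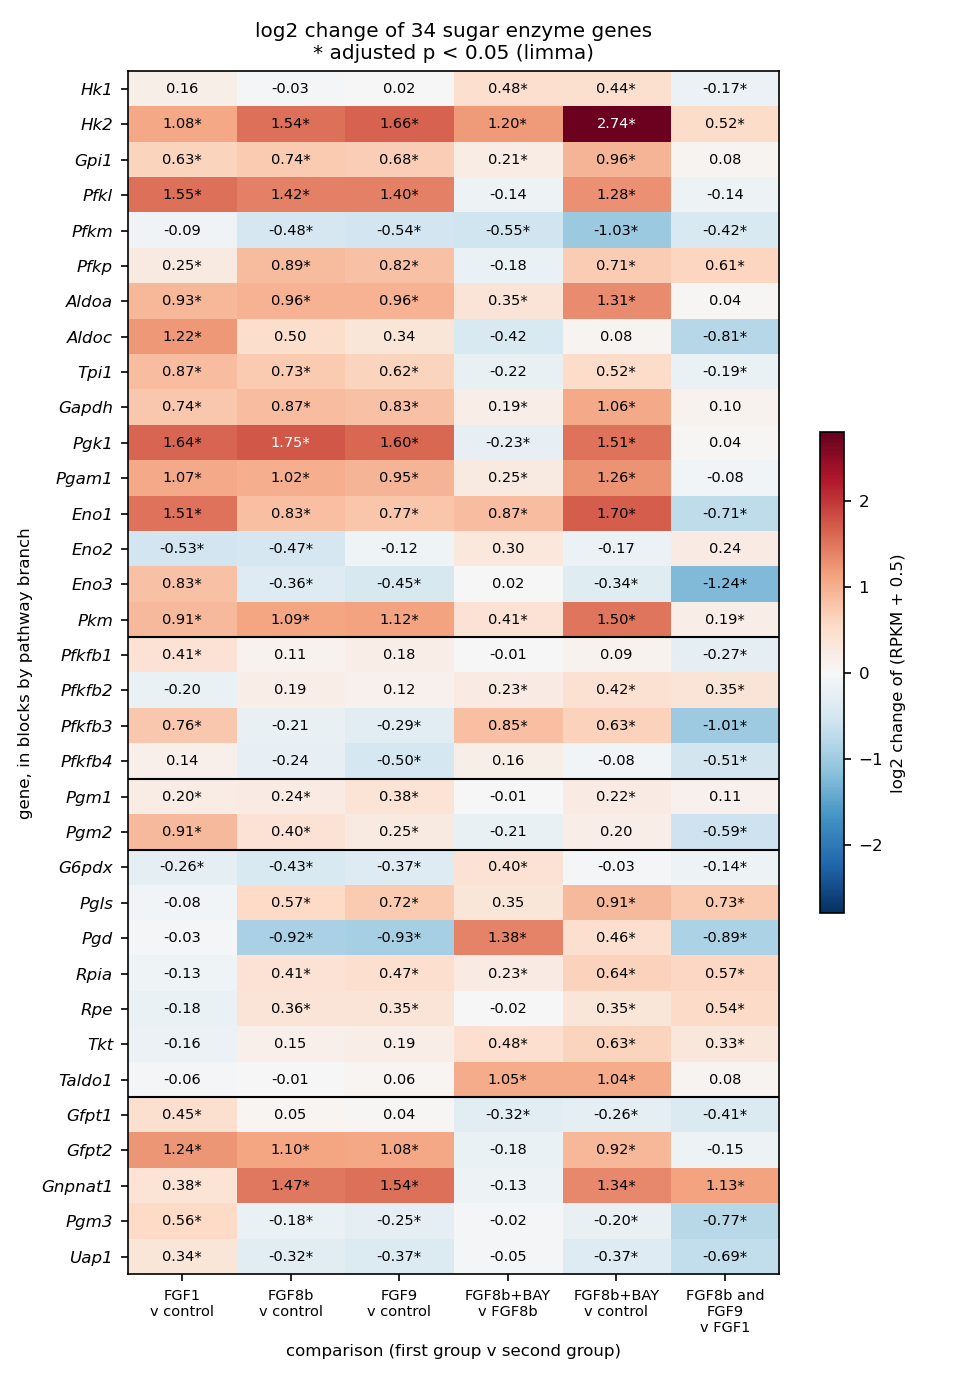
Each cell gives the log2 change of RPKM + 0.5 of 1 member (rows, in blocks of glycolysis, Pfkfb, phosphoglucomutase, pentose phosphate and hexosamine enzymes) in 1 comparison (columns), red where the first group was higher and blue where it was lower, with an asterisk at an adjusted p under 0.05. Hk2 with FGF8b plus BAY-876 against control (2.74) is the darkest cell, and the pentose phosphate block is pale with FGF1 and red for Pgd (1.38) and Taldo1 (1.05) with BAY-876 against FGF8b.

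The promoters of 4 members are shown because they stand for patterns of the results: Pgk1 rose with every FGF and fell slightly when BAY-876 was added, Hk2 rose at each of these steps, Eno1 was higher with FGF1 than with FGF8b and FGF9, and Pgd fell with FGF8b and FGF9. Each window runs from 250 bases before to 50 bases after a RefSeq transcript start on GRCm38.p6, 5′ to 3′ on the gene's strand, and is the first listed of the gene (1 window for Pgk1 and Hk2, 3 for Eno1 and 2 for Pgd). The other window of Pgd held neither ACGTG nor GCGTG. The windows lie at chrX:106186850-106187149 (plus strand), chr6:82774405-82774704 (minus strand), chr4:150236458-150236757 (plus strand) and chr4:149166656-149166955 (minus strand). Capitals mark ACGTG or GCGTG on either strand, so that a match on the other strand reads CACGT or CACGC. These letters are the core of the element bound by hypoxia-inducible factors, and CACGTG, which holds ACGTG, is the core of the E-box.
Pgk1: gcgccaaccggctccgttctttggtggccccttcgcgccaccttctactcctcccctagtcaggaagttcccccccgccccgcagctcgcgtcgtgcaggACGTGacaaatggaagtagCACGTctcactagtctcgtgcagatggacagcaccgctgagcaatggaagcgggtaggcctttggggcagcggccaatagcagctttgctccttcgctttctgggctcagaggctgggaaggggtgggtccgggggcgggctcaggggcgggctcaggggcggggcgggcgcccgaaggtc
Hk2: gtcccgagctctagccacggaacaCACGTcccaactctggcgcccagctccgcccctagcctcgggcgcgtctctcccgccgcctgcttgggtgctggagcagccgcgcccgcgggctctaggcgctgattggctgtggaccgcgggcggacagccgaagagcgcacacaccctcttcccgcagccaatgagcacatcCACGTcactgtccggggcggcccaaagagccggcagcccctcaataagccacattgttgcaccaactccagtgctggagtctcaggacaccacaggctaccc
Eno1: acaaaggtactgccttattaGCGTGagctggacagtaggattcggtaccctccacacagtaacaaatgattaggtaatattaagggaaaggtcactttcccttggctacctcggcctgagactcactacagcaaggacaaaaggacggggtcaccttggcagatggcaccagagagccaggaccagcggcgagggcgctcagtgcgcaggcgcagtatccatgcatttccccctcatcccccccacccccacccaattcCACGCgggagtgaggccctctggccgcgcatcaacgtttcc
Pgd: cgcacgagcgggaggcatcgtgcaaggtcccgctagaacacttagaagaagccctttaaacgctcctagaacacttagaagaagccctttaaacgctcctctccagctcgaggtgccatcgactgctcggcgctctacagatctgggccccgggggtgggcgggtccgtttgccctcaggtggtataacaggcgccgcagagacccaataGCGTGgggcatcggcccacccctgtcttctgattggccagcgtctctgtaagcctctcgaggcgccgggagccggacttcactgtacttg

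Of the 34 members 33 had windows, 50 in all. ACGTG was in 22 of these 50 (44%), beside 19.6% of all 32851 windows of the same length, and GCGTG was in 26 (52%), beside 32.4%. CACGTG was in 3 of 50 (6%), beside 7.15% of all windows. At least 1 of ACGTG and GCGTG was found in 38 of the 50 windows (76%), beside 43.8%, and in 29 of the 33 genes. The share of all genes with a match was not taken, and a gene with more windows has more chances of a match. Both ACGTG and GCGTG hold CG, and the set of all windows was not matched to those of the members in base composition. The part of base composition in these shares was not tested. A match is a description of letters and not a measured binding site, and windows of 1 gene may share sequence.

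Hexokinase has 2 members here, Hk1, the form found in most tissues, and Hk2, the inducible form of muscle and fat. Hk2 was measured at 1.37, 1.06 and 1.52 RPKM in control, 3.18, 3.6 and 3.17 in FGF1, 4.29, 4.8 and 5.22 in FGF8b, 5.32, 4.82 and 5.45 in FGF9 and 12, 10.4 and 12.3 in FGF8b plus BAY-876. Its libraries fell into 4 separate levels, in the order control, FGF1, FGF8b together with FGF9, and FGF8b plus BAY-876. Hk2 rose by 1.08 ± 0.11 with FGF1 (adjusted p = 1.02e-06), by 1.54 ± 0.11 with FGF8b (adjusted p = 3.57e-09) and by 1.66 ± 0.11 with FGF9 (adjusted p = 1.33e-09). Adding BAY-876 to FGF8b raised it by a further 1.20 ± 0.11 (adjusted p = 1.43e-07), to 11.6 ± 0.991 RPKM, a mean that was 8.77 times the control mean. Its change against control with FGF8b plus BAY-876, 2.74 ± 0.11, was the largest of any member in the 7 comparisons.

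Hk1 was at 25, 22.8 and 23.7 RPKM in control, 25.4, 29.1 and 25.8 in FGF1, 22.4, 22.5 and 25.2 in FGF8b, 23, 24.7 and 24.6 in FGF9 and 30.2, 31.2 and 36.7 in FGF8b plus BAY-876. The 3 libraries with BAY-876 lay above all others, FGF1 lay between, and control, FGF8b and FGF9 overlapped. Hk1 rose by 0.48 ± 0.08 with BAY-876 against FGF8b (adjusted p = 8.99e-05), while its changes with FGF1, FGF8b and FGF9 were 0.16, -0.03 and 0.02 and did not pass. Hk1 stayed the larger part of hexokinase RNA per length in every library. The share of Hk2 in the summed RPKM of both was 4.43% to 6.04% in control, 11% to 11.2% in FGF1, 16.1% to 17.6% in FGF8b, 16.4% to 18.8% in FGF9 and 25% to 28.4% in FGF8b plus BAY-876.

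Gpi1, the isomerase of the second step, had group means from 95.7 RPKM in control to 186 in FGF8b plus BAY-876. It rose by 0.63, 0.74 and 0.68 with FGF1, FGF8b and FGF9. Its small rise with BAY-876 against FGF8b (0.21 ± 0.08, adjusted p = 0.0263) came with overlapping libraries and was lost without FGF8b 1 or 2 or FGF8b plus BAY-876 3 (log2 change 0.16 to 0.17, adjusted p = 0.106 to 0.121), and also with summed lines (0.23, adjusted p = 0.0529).

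Phosphofructokinase is made from 3 genes, Pfkl (liver type), Pfkm (muscle type) and Pfkp (platelet type), and they moved apart. Pfkl stood at 23, 19.9 and 18.2 RPKM in control, 56.5, 63.9 and 61.1 in FGF1, 50.7, 52.3 and 63.1 in FGF8b, 43.5, 69.8 and 53.1 in FGF9 and 46.7, 46.7 and 56.7 in FGF8b plus BAY-876. All 12 treated libraries lay above the 3 control libraries and overlapped each other. The rise of Pfkl was 1.55 ± 0.14 with FGF1 (adjusted p = 4.14e-07), 1.42 ± 0.14 with FGF8b (adjusted p = 2.66e-07) and 1.40 ± 0.14 with FGF9 (adjusted p = 2.82e-07). With BAY-876 it differed from FGF8b by -0.14 (95% interval -0.44 to 0.15), which did not pass.

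Pfkm was at 24.1, 23.7 and 21.2 RPKM in control, 20.9, 21.9 and 21.9 in FGF1, 14.9, 15.8 and 18.6 in FGF8b, 13.6, 17.6 and 16 in FGF9 and 10.3, 11.3 and 11.4 in FGF8b plus BAY-876. FGF8b and FGF9 lay below control and FGF1, and FGF8b plus BAY-876 lay below all of them. Pfkm fell with FGF8b (-0.48 ± 0.09, adjusted p = 0.000336) and FGF9 (-0.54 ± 0.09, adjusted p = 0.000109), and fell again when BAY-876 was added (-0.55 ± 0.09, adjusted p = 0.000121). Against control the fall with FGF8b plus BAY-876 was -1.03 ± 0.09, and with FGF1 the change was -0.09 and did not pass.

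Pfkp was at 14.6, 14.8 and 15.2 RPKM in control, 17, 18.2 and 18 in FGF1, 24.6, 27.9 and 31.7 in FGF8b, 24.9, 28.2 and 27 in FGF9 and 25.4, 22.7 and 25.9 in FGF8b plus BAY-876. FGF1 lay just above control, and the other 3 groups lay higher and overlapped. Pfkp rose by 0.89 ± 0.08 with FGF8b and 0.82 ± 0.08 with FGF9 (adjusted p = 1.02e-07 and 2.31e-07), and it was higher in FGF8b and FGF9 than in FGF1 by 0.61 ± 0.07 (adjusted p = 1.42e-06). Of the summed RPKM of the 3 genes, Pfkl made up 33.4% to 37.3% in control and 59.9% to 61.5% in FGF1, 54.5% to 56.2% in FGF8b, 53% to 60.4% in FGF9 and 56.7% to 60.3% in FGF8b plus BAY-876. The share of Pfkm was 38.8% to 40.7% in control and 12.2% to 14% in FGF8b plus BAY-876. By the line used for each gene, Pfkm had the largest share of the 3 in every control library, and Pfkl in every treated library. The 8 lines of Pfkl with a mean of at least 1 RPKM changed by -0.18 to 1.68 with FGF1. Shares by other lines were not taken.

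The Pfkfb genes encode enzymes that both make and break the bisphosphate activator of phosphofructokinase. All 4 were low, with group means between 2.4 and 5.49 RPKM. Pfkfb3, the form with the strongest kinase side, was at 3.14, 2.84 and 3.11 RPKM in control, 4.89, 5.67 and 5.88 in FGF1, 2.74, 2.36 and 2.52 in FGF8b, 2.13, 2.72 and 2.34 in FGF9 and 5.09, 4.38 and 5.51 in FGF8b plus BAY-876. FGF1 and FGF8b plus BAY-876 overlapped at the top, control lay below them, and FGF8b and FGF9 lay lowest. Pfkfb3 rose with FGF1 (0.76 ± 0.10, adjusted p = 2.86e-05) and with BAY-876 against FGF8b (0.85 ± 0.10, adjusted p = 4.12e-06), and it was lower in FGF8b and FGF9 than in FGF1 (-1.01 ± 0.09, adjusted p = 6.64e-08). Its smaller fall with FGF9 against control (-0.29 ± 0.10, adjusted p = 0.0219) was lost without control 1 or 3 or FGF9 1 or 3 (log2 change -0.27 to -0.22, adjusted p = 0.0571 to 0.0941), and also with the RefSeq line or summed lines (-0.22 to -0.18, adjusted p = 0.0564 to 0.0634).

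Pfkfb4 was at 5.43, 5.23 and 4.2 RPKM in control, 5.69, 4.88 and 5.9 in FGF1, 4.63, 3.0 and 4.93 in FGF8b, 3.39, 3.23 and 3.38 in FGF9 and 4.84, 3.91 and 5.23 in FGF8b plus BAY-876. Only the FGF9 libraries lay apart from control, all below it. Pfkfb4 fell with FGF9 (-0.50 ± 0.15, adjusted p = 0.00749) and was not called with FGF1 (0.14) or FGF8b (-0.24). Pfkfb1 rose with FGF1 (0.41 ± 0.08, adjusted p = 0.0014) and was lower in FGF8b and FGF9 than in FGF1 (-0.27 ± 0.07, adjusted p = 0.00471). Pfkfb2 was higher with FGF8b plus BAY-876 than in control (0.42 ± 0.08, adjusted p = 0.000319). Its rise against FGF8b (0.23, adjusted p = 0.0301) was lost without FGF8b 1 or 3 or FGF8b plus BAY-876 1 or 3 (log2 change 0.20 to 0.22, adjusted p = 0.0703 to 0.095), and also with summed lines (0.16, adjusted p = 0.133).

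Aldolase splits the sugar bisphosphate into triose phosphates. Aldoa, the muscle and general form, made up 97.6% to 98.4% of the summed RPKM of Aldoa and Aldoc in FGF1, where its share was lowest. Aldoa was at 188, 187 and 174 RPKM in control, 327, 365 and 353 in FGF1, 327, 344 and 406 in FGF8b, 321, 401 and 355 in FGF9 and 439.6, 451 and 477 in FGF8b plus BAY-876. Control lay lowest, the 3 FGF groups overlapped, and FGF8b plus BAY-876 lay above all others. Aldoa rose by 0.93 ± 0.09 with FGF1, 0.96 ± 0.09 with FGF8b and 0.96 ± 0.09 with FGF9 (largest adjusted p = 5.10e-07), and by 0.35 ± 0.09 when BAY-876 was added (adjusted p = 0.00248). Aldoc, the brain form, was scarce: 2.22, 2.81 and 3.04 RPKM in control, 8.0, 6.95 and 5.9 in FGF1, 2.81, 4.02 and 5.52 in FGF8b, 2.76, 4.52 and 3.41 in FGF9 and 4.02, 1.76 and 3.18 in FGF8b plus BAY-876. FGF1 lay above the other 4 groups, which overlapped one another, and Aldoc rose by 1.22 ± 0.24 with FGF1 (adjusted p = 0.00103) and was lower in FGF8b and FGF9 than in FGF1 (-0.81 ± 0.21, adjusted p = 0.00337).

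Of the enzymes after aldolase, Pgk1, the kinase that makes the first ATP of the pathway, rose most on the log2 scale with each of the 3 FGFs. It was at 185, 184 and 175 RPKM in control, 557, 586 and 556 in FGF1, 550.2, 628 and 659 in FGF8b, 531, 574 and 553 in FGF9 and 569.6, 452 and 542 in FGF8b plus BAY-876. The control libraries lay far below all 12 treated libraries, and the treated groups overlapped. Pgk1 rose by 1.64 ± 0.08 with FGF1 (adjusted p = 5.93e-10), 1.75 ± 0.08 with FGF8b (adjusted p = 2.87e-11) and 1.60 ± 0.08 with FGF9 (adjusted p = 7.19e-11), so that its FGF8b mean was 3.37 times the control mean. It fell when BAY-876 was added (-0.23 ± 0.08, adjusted p = 0.0201). The libraries of these 2 groups overlapped, and this fall lost its call without FGF8b 2 or 3 or FGF8b plus BAY-876 2 (log2 change -0.21 to -0.14, adjusted p = 0.0646 to 0.123), and also with trimmed-mean scaling (-0.16, adjusted p = 0.0971).

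The neighbours of Pgk1 rose in all 3 FGF groups and less. Tpi1, the triose isomerase, rose by 0.87, 0.73 and 0.62 with FGF1, FGF8b and FGF9. For Gapdh, the triose phosphate dehydrogenase, the changes were 0.74, 0.87 and 0.83, and for Pgam1, the mutase after Pgk1, 1.07, 1.02 and 0.95. Gapdh is often used as a reference gene, and here its mean was 88 ± 7.54 RPKM in control and 184 ± 4.53 in FGF8b plus BAY-876 (1.06 ± 0.07, adjusted p = 2.77e-09). The rises of Gapdh and Pgam1 with BAY-876 against FGF8b (0.19 and 0.25, adjusted p = 0.0374 and 0.0217) were uncertain. That of Gapdh was lost without FGF8b 1 or 2 or FGF8b plus BAY-876 1, 2 or 3 (log2 change 0.17 to 0.20, adjusted p = 0.0569 to 0.108), and also with no filter on low values, the RefSeq line or summed lines (0.19 to 0.22, adjusted p = 0.0505 to 0.0653), and that of Pgam1 was lost without FGF8b 1 or 2 or FGF8b plus BAY-876 1 or 3 (log2 change 0.17 to 0.23, adjusted p = 0.062 to 0.122). Many glycolysis genes, Gapdh, Pgam1, Eno1 and Pgk1 among them, have near-identical copies in the mouse genome, and the sources used here do not say how shared reads were assigned, so their levels are uncertain.

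Enolase, which makes phosphoenolpyruvate, differed between the FGFs. Eno1, the general form, was at 133, 146 and 136 RPKM in control, 377, 415 and 394 in FGF1, 205, 251 and 291 in FGF8b, 203, 259 and 249 in FGF9 and 443, 437 and 469 in FGF8b plus BAY-876. FGF8b and FGF9 overlapped each other between control and FGF1, and FGF8b plus BAY-876 lay above FGF1. Eno1 rose by 1.51 ± 0.11 with FGF1 (adjusted p = 2.90e-08), by 0.83 ± 0.11 with FGF8b (adjusted p = 4.63e-06) and by 0.77 ± 0.11 with FGF9 (adjusted p = 9.99e-06). It was lower in FGF8b and FGF9 than in FGF1 (-0.71 ± 0.09, adjusted p = 5.14e-06), and BAY-876 raised it over FGF8b by 0.87 ± 0.11 (adjusted p = 4.66e-06).

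Eno3, the muscle form, was at 4.51, 5.25 and 3.83 RPKM in control, 7.74, 8.9 and 8.58 in FGF1, 3.21, 4.37 and 2.77 in FGF8b, 2.9, 3.68 and 2.93 in FGF9 and 3.4, 3.73 and 3.21 in FGF8b plus BAY-876. The FGF1 libraries lay above all others, and FGF8b overlapped control. Eno3 rose with FGF1 (0.83 ± 0.14, adjusted p = 0.000215) and fell with FGF9 (-0.45 ± 0.14, adjusted p = 0.00935), and FGF8b and FGF9 lay below FGF1 (-1.24 ± 0.12, adjusted p = 2.08e-07). The falls of Eno3 against control were uncertain: that with FGF8b (-0.36, adjusted p = 0.0333) was lost without control 1 or 2 or FGF8b 1 or 3 (log2 change -0.36 to -0.23, adjusted p = 0.0666 to 0.168), and also with no filter on low values (-0.36, adjusted p = 0.065), that with FGF9 was lost without control 2 (log2 change -0.35, adjusted p = 0.0538), and that with FGF8b plus BAY-876 (-0.34, adjusted p = 0.0361) was lost without control 1 or 2 or FGF8b plus BAY-876 1 or 3 (log2 change -0.34 to -0.24, adjusted p = 0.0701 to 0.163), and also with no filter on low values or summed lines (-0.37 to -0.34, adjusted p = 0.056 to 0.0684). Eno2, the neuronal form, was at 11.7, 10.9 and 11.8 RPKM in control, 7.89, 6.63 and 8.99 in FGF1, 8.35, 7.75 and 8.35 in FGF8b, 10.5, 9.82 and 11.3 in FGF9 and 9.04, 8.46 and 13.7 in FGF8b plus BAY-876. FGF1 and FGF8b lay below control, while FGF9 and FGF8b plus BAY-876 overlapped it. Eno2 fell with FGF1 (-0.53 ± 0.14, adjusted p = 0.00729) and FGF8b (-0.47 ± 0.14, adjusted p = 0.00788). The share of Eno1 in summed enolase RPKM was 89.1% to 90.1% in control, 95.7% to 96.4% in FGF1, 93.8% to 95.1% in FGF9 and 96.5% to 97.3% in FGF8b plus BAY-876.

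Pkm, the pyruvate kinase of the last step, was at 263, 258 and 238 RPKM in control, 453, 504 and 474 in FGF1, 503, 539 and 581 in FGF8b, 473, 645 and 540.1 in FGF9 and 665, 728 and 759 in FGF8b plus BAY-876. The order was control, then the 3 FGF groups, which overlapped, then FGF8b plus BAY-876. Pkm rose by 0.91 ± 0.09 with FGF1 (adjusted p = 1.69e-06), 1.09 ± 0.09 with FGF8b (adjusted p = 5.10e-08), 1.12 ± 0.09 with FGF9 (adjusted p = 3.67e-08) and 0.41 ± 0.09 when BAY-876 was added (adjusted p = 0.00162). It had the highest mean over all libraries of the 34 members.

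**Figure D2:**
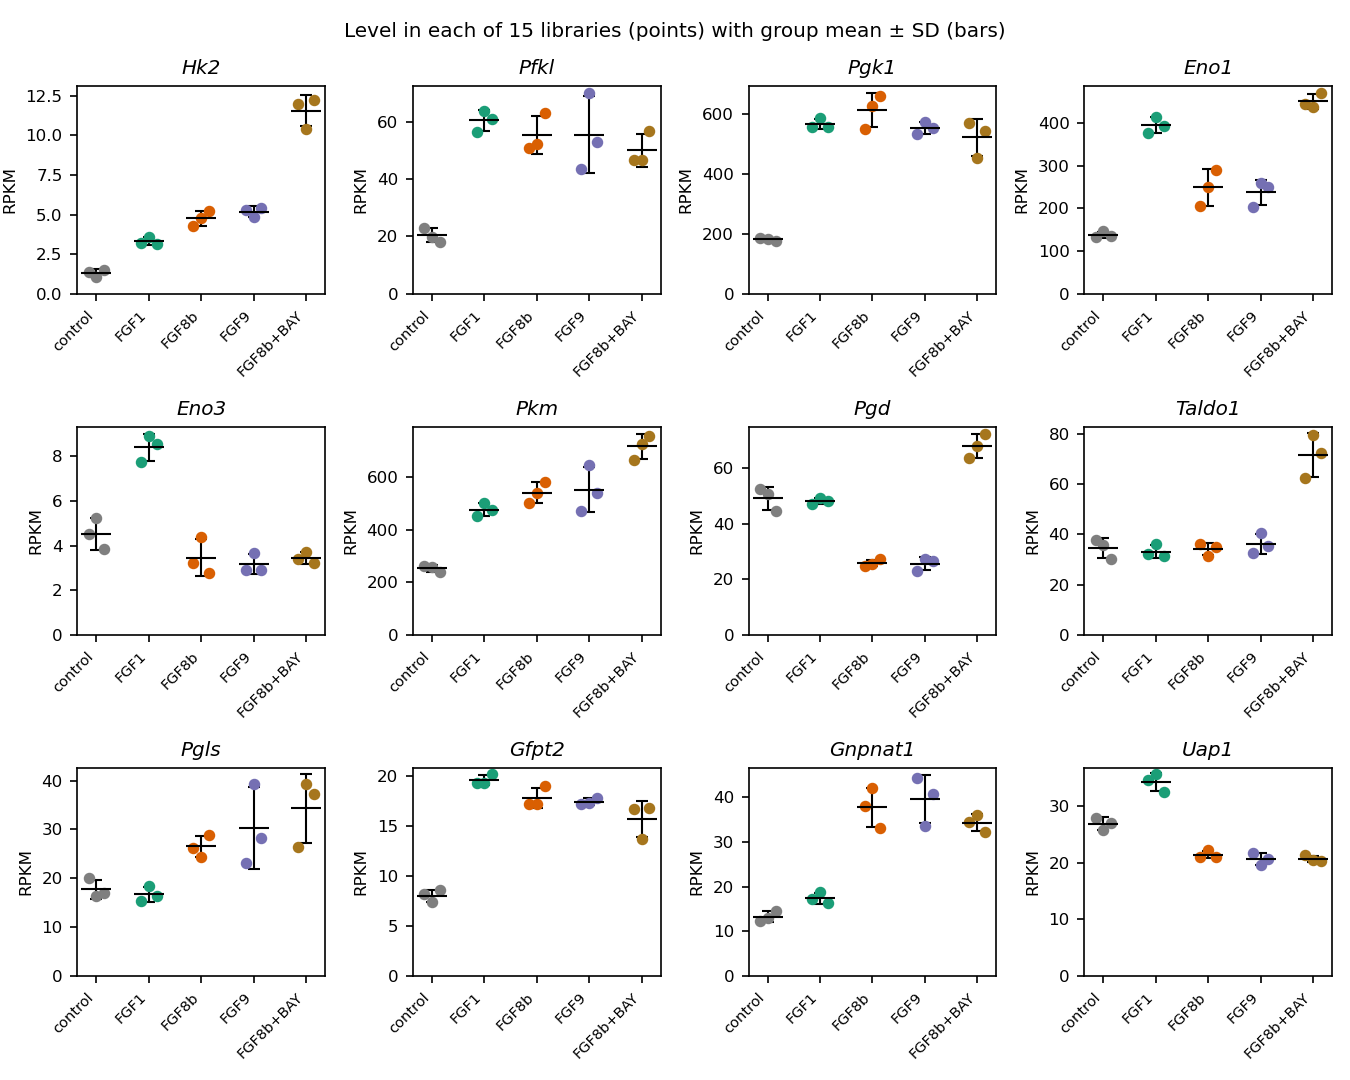
RPKM (vertical axes, from 0) of 12 members in each of the 15 libraries (points), by group, with the group mean and SD (bars). Hk2 climbs from 1.32 in control to 11.6 with FGF8b plus BAY-876. Eno1 is high with FGF1 (395) and highest with FGF8b plus BAY-876 (450), and Eno3 is highest with FGF1 (8.4). Pgd is low with FGF8b and FGF9 (25.8 and 25.6), and Gnpnat1 is high in those groups (37.7 and 39.5).

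Phosphoglucomutases link glycogen and nucleotide sugars to glycolysis. The symbols of the table are older ones: by RefSeq accession, its Pgm1 is the gene now called Pgm2 on chromosome 5, whose human counterpart acts mainly on pentose phosphates, and its Pgm2 is the gene now called Pgm1 on chromosome 4, whose human counterpart acts on glucose phosphates. The table's Pgm2 rose from 19.4 ± 1.52 RPKM in control to 37 ± 0.528 with FGF1 (0.91 ± 0.09, adjusted p = 7.87e-07) and was lower in FGF8b and FGF9 than in FGF1 (-0.59 ± 0.08, adjusted p = 5.15e-06). Its rise with FGF9 (0.25, adjusted p = 0.0185) was lost without control 3 or FGF9 2 or 3 (log2 change 0.19 to 0.24, adjusted p = 0.0502 to 0.086), and also with trimmed-mean scaling (0.17, adjusted p = 0.0816). The table's Pgm1 had group means of 12.4 to 16.2 RPKM, and its rise was 0.24 with FGF8b and 0.38 with FGF9. The first of these lost its call with trimmed-mean scaling (0.17, adjusted p = 0.0537).

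**Figure D3:**
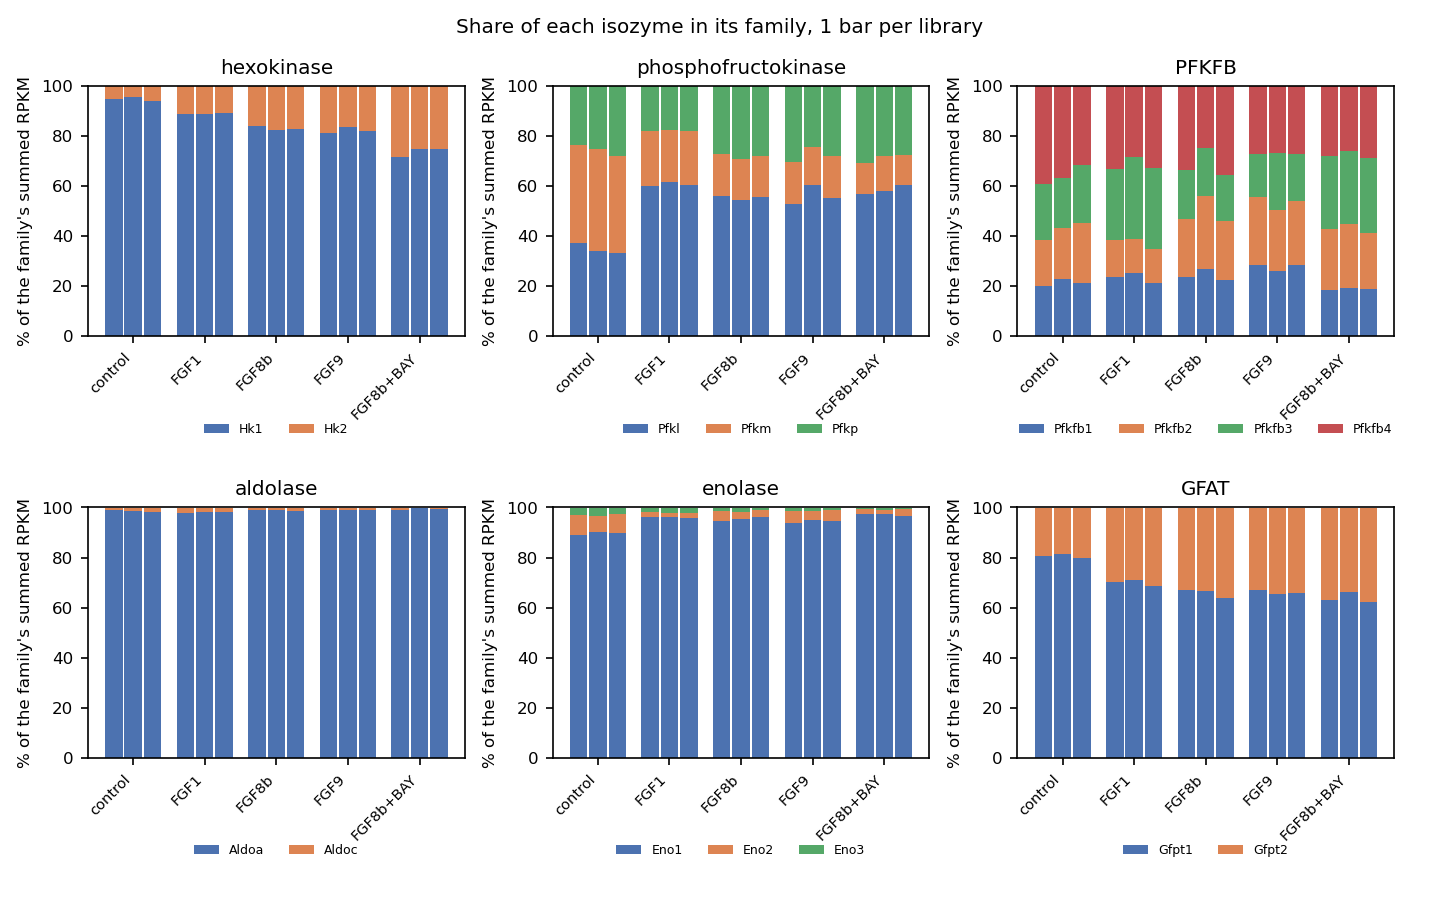
Share (%) of each gene in the summed RPKM of its isozyme family, 1 bar per library, in 6 families of 2 to 4 genes. The Hk2 part grows from 4.43% to 6.04% in control to 25.0% to 28.4% with FGF8b plus BAY-876. By the line used for each gene, Pfkl takes the place of Pfkm as the largest phosphofructokinase. The Gfpt2 part of GFAT grows from 18.5% to 20.3% in control to 33.9% to 37.7% with FGF8b plus BAY-876.

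In the pentose phosphate pathway the 2 dehydrogenases of the oxidative arm, Pgd and G6pdx, fell with FGF8b and FGF9, while Pgls, Rpia and Rpe rose. Pgd, the decarboxylating dehydrogenase that makes NADPH and ribulose phosphate, was at 52.5, 50.5 and 44.5 RPKM in control, 47.1, 49.1 and 48 in FGF1, 24.8, 25.4 and 27.1 in FGF8b, 23.1, 27.3 and 26.4 in FGF9 and 63.5, 67.9 and 72.2 in FGF8b plus BAY-876. Control and FGF1 overlapped, FGF8b and FGF9 lay far below them, and FGF8b plus BAY-876 lay above all. Pgd fell with FGF8b (-0.92 ± 0.07, adjusted p = 2.57e-08) and FGF9 (-0.93 ± 0.07, adjusted p = 1.99e-08), and with FGF1 its change was -0.03 ± 0.07 (95% interval -0.19 to 0.13). Adding BAY-876 to FGF8b raised it by 1.38 ± 0.07 (adjusted p = 4.91e-10), and FGF8b plus BAY-876 lay above control by 0.46 ± 0.07 (adjusted p = 3.81e-05).

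G6pdx, the dehydrogenase that opens the pathway and makes its first NADPH, was at 57.6, 53.8 and 53.4 RPKM in control, 45.6, 46.3 and 45.7 in FGF1, 39.9, 40.8 and 41.1 in FGF8b, 43.9, 41.9 and 41.3 in FGF9 and 57.5, 49.6 and 54.4 in FGF8b plus BAY-876. The 3 FGF groups lay below control, and FGF8b plus BAY-876 overlapped control. G6pdx fell in all 3, with changes of -0.26 ± 0.05 with FGF1, -0.43 ± 0.05 with FGF8b and -0.37 ± 0.05 with FGF9 (largest adjusted p = 0.00174), and BAY-876 raised it over FGF8b by 0.40 ± 0.05 (adjusted p = 1.50e-05). Against control its change with FGF8b plus BAY-876 was -0.03 (95% interval -0.15 to 0.09).

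Pgls, the lactonase between those dehydrogenases, did not follow them. It was at 19.96, 16.3 and 16.9 RPKM in control, 15.3, 18.4 and 16.3 in FGF1, 26.2, 24.4 and 28.9 in FGF8b, 23, 39.4 and 28.3 in FGF9 and 26.3, 39.3 and 37.2 in FGF8b plus BAY-876. FGF8b, FGF9 and FGF8b plus BAY-876 lay above control and FGF1, with wide spread in the FGF9 and BAY-876 libraries. Pgls was higher in FGF8b and FGF9 than in FGF1 by 0.73 ± 0.14 (adjusted p = 0.000371), and higher than control by 0.57 ± 0.17 with FGF8b (adjusted p = 0.00772) and 0.72 ± 0.17 with FGF9 (adjusted p = 0.00133).

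Of the non-oxidative arm, Rpia, the isomerase that makes ribose phosphate, was at 15.3, 14.1 and 12.5 RPKM in control, 12.8, 12.2 and 13.1 in FGF1, 19.4, 17.7 and 18.9 in FGF8b, 18.7, 19 and 20.9 in FGF9 and 21.5, 21.4 and 23.3 in FGF8b plus BAY-876. FGF8b and FGF9 overlapped above control and FGF1, and FGF8b plus BAY-876 lay highest. Rpia was higher in FGF8b and FGF9 than in FGF1 by 0.57 ± 0.06 (adjusted p = 9.92e-07), and higher than control by 0.41 and 0.47. Its rise with BAY-876 against FGF8b (0.23, adjusted p = 0.0133) was lost without FGF8b 2 or FGF8b plus BAY-876 3 (log2 change 0.19 to 0.20, adjusted p = 0.0595 to 0.0631). Rpe, the epimerase beside it, likewise rose by 0.36 with FGF8b and 0.35 with FGF9 (adjusted p = 0.000495 and 0.000647), and its difference with BAY-876 did not pass (-0.02, 95% interval -0.17 to 0.14).

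Taldo1, the transaldolase, was at 37.7, 35.8 and 30.2 RPKM in control, 32, 36 and 31.2 in FGF1, 36, 31.4 and 34.9 in FGF8b, 32.7, 40.3 and 35.2 in FGF9 and 62.2, 79.6 and 72.3 in FGF8b plus BAY-876. Control and the 3 FGF groups overlapped, and only FGF8b plus BAY-876 stood apart, above them. Its change was -0.06 with FGF1, -0.01 with FGF8b and 0.06 with FGF9, and BAY-876 raised it over FGF8b by 1.05 ± 0.10 (adjusted p = 4.89e-07), 2.09 times the FGF8b mean. Tkt, the transketolase, likewise was called in none of the 3 FGF groups and rose with BAY-876 by 0.48 ± 0.12 (adjusted p = 0.0038), from 67.8 ± 3.41 to 94.7 ± 8.53 RPKM.

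The hexosamine pathway begins with GFAT, the amidotransferase encoded by Gfpt1 and Gfpt2. Gfpt1 was at 33.5, 32.5 and 33.7 RPKM in control, 46, 47.1 and 43.8 in FGF1, 35.1, 34.6 and 33.8 in FGF8b, 35.4, 32.5 and 34.4 in FGF9 and 28.5, 26.6 and 27.7 in FGF8b plus BAY-876. FGF1 lay above and FGF8b plus BAY-876 below all other libraries. Gfpt1 rose with FGF1 (0.45 ± 0.05, adjusted p = 3.54e-06), was not called with FGF8b (0.05) or FGF9 (0.04), and fell when BAY-876 was added (-0.32 ± 0.05, adjusted p = 5.69e-05).

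Gfpt2 was at 8.14, 7.37 and 8.57 RPKM in control, 19.3, 19.3 and 20.2 in FGF1, 17.2, 17.2 and 19 in FGF8b, 17.3, 17.3 and 17.8 in FGF9 and 16.7, 13.7 and 16.8 in FGF8b plus BAY-876. All treated libraries lay above control, with FGF1 highest and FGF8b plus BAY-876 lowest among them. Gfpt2 rose by 1.24 ± 0.08 with FGF1 (adjusted p = 8.72e-09), 1.10 ± 0.08 with FGF8b (adjusted p = 5.34e-09) and 1.08 ± 0.08 with FGF9 (adjusted p = 6.59e-09). Its difference between FGF8b plus BAY-876 and FGF8b (-0.18 ± 0.08, adjusted p = 0.0607) did not pass, although the libraries did not overlap. The share of Gfpt2 in GFAT RNA per length was 18.5% to 20.3% in control, 29.1% to 31.5% in FGF1, 32.9% to 36% in FGF8b, 32.8% to 34.7% in FGF9 and 33.9% to 37.7% in FGF8b plus BAY-876.

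The next enzyme, Gnpnat1, acetylates glucosamine phosphate, and it was the member that rose most in FGF8b and FGF9 over FGF1. It was at 12.3, 12.9 and 14.6 RPKM in control, 17.1, 18.7 and 16.2 in FGF1, 38, 42 and 33.2 in FGF8b, 44.2, 33.7 and 40.7 in FGF9 and 34.5, 36.1 and 32.3 in FGF8b plus BAY-876. FGF1 lay just above control, and FGF8b, FGF9 and FGF8b plus BAY-876 lay much higher and overlapped. Gnpnat1 rose by 0.38 ± 0.10 with FGF1 (adjusted p = 0.0096), 1.47 ± 0.10 with FGF8b (adjusted p = 4.55e-09) and 1.54 ± 0.10 with FGF9 (adjusted p = 2.46e-09). FGF8b and FGF9 lay above FGF1 by 1.13 ± 0.09 (adjusted p = 1.90e-08), and adding BAY-876 moved it by -0.13 (95% interval -0.35 to 0.09), which did not pass.

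The last 2 enzymes fell with FGF8b and FGF9 and rose with FGF1. Uap1, the pyrophosphorylase that makes UDP-N-acetylglucosamine, was at 28, 25.8 and 27 RPKM in control, 34.7, 35.8 and 32.6 in FGF1, 21, 22.2 and 21.1 in FGF8b, 21.8, 19.7 and 20.7 in FGF9 and 21.4, 20.6 and 20.3 in FGF8b plus BAY-876. FGF1 lay above control, and FGF8b, FGF9 and FGF8b plus BAY-876 overlapped below it. Uap1 rose with FGF1 (0.34 ± 0.06, adjusted p = 0.000179), fell with FGF8b (-0.32 ± 0.06, adjusted p = 0.000112) and FGF9 (-0.37 ± 0.06, adjusted p = 2.65e-05), and was lower in FGF8b and FGF9 than in FGF1 (-0.69 ± 0.05, adjusted p = 4.67e-09). Pgm3, the mutase before it, had the same order, at 19.8 ± 1.06 RPKM in FGF1 and 13.3 ± 0.258 in control, and lay lower in FGF8b and FGF9 than in FGF1 (-0.77 ± 0.06, adjusted p = 9.83e-09). Its small fall with FGF8b against control (-0.18, adjusted p = 0.0297) was lost without control 1, 2 or 3 or FGF8b 1 or 2 (log2 change -0.19 to -0.15, adjusted p = 0.0507 to 0.103), and that with FGF8b plus BAY-876 (-0.20, adjusted p = 0.0133) was lost without FGF8b plus BAY-876 2 (log2 change -0.16, adjusted p = 0.059).

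The direct comparison of FGF8b and FGF9 together with FGF1 found 9 of 34 members higher (26.5%, against 36.8% of all tested genes) and 15 lower (44.1%, against 28.8%), and 22 members whose groups did not overlap, beside 59.6% of all tested genes. The largest differences upward were Gnpnat1 (1.13), Pgls (0.73), Pfkp (0.61) and Rpia (0.57), and downward Eno3 (-1.24), Pfkfb3 (-1.01), Pgd (-0.89) and Aldoc (-0.81). By branch, 4 of 7 pentose phosphate enzymes were higher and 2 lower, while 3 of 4 Pfkfb enzymes and 3 of 5 hexosamine enzymes were lower. The upper glycolysis genes Gpi1 (0.08) and Pfkl (-0.14), with Aldoa (0.04), Pgk1 (0.04) and Pgam1 (-0.08), did not pass. The calls of Hk1 (-0.17), Tpi1 (-0.19), Pkm (0.19) and G6pdx (-0.14) did not hold without some libraries. That of Hk1 was lost without FGF1 2, FGF8b 1 or 2 or FGF9 1 (log2 change -0.16 to -0.11, adjusted p = 0.067 to 0.226), and also with no filter on low values, the RefSeq line or summed lines (-0.17 to -0.15, adjusted p = 0.0577 to 0.0792), that of Tpi1 without control 2, FGF1 1, 2 or 3, FGF8b 1 or 2 or FGF9 1 or 3 (log2 change -0.21 to -0.14, adjusted p = 0.0522 to 0.133), and also with no filter on low values or summed lines (-0.19, adjusted p = 0.0513 to 0.0869), that of Pkm without control 1 or 2, FGF1 1 or 3, FGF8b 2 or 3, FGF9 2 or 3 or FGF8b plus BAY-876 2 or 3 (log2 change 0.13 to 0.20, adjusted p = 0.0513 to 0.175), and also with no filter on low values, summed lines or trimmed-mean scaling (0.15 to 0.20, adjusted p = 0.0538 to 0.115), and that of G6pdx without FGF1 2 (log2 change -0.14, adjusted p = 0.0504). If heparin was given with FGF9 alone, as the agent labels could be read, it cannot be told apart from FGF9 itself.

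No member was called different between FGF9 and FGF8b. In limma 0 of 34 were called higher and 0 lower, against 0.202% and 0.0937% of all tested genes, and voom on recovered reads also called 0. At an unadjusted p under 0.05 the count was 1 member, Eno2 (0.35 ± 0.14, adjusted p = 0.59), and 977 of 13869 genes. The differences of the 34 members ran from -0.26 (Pfkfb4) to 0.35 (Eno2), with 95% intervals of ± 0.11 to ± 0.52. A call at an adjusted p under 0.05 needs a difference larger than the half-width of its interval, as Eno2 shows. Real differences of such sizes may have been missed. The libraries of the 2 groups did not overlap for 3 members, Eno2, Pgm1 and G6pdx, beside 10.8% of all tested genes.

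**Figure D4:**
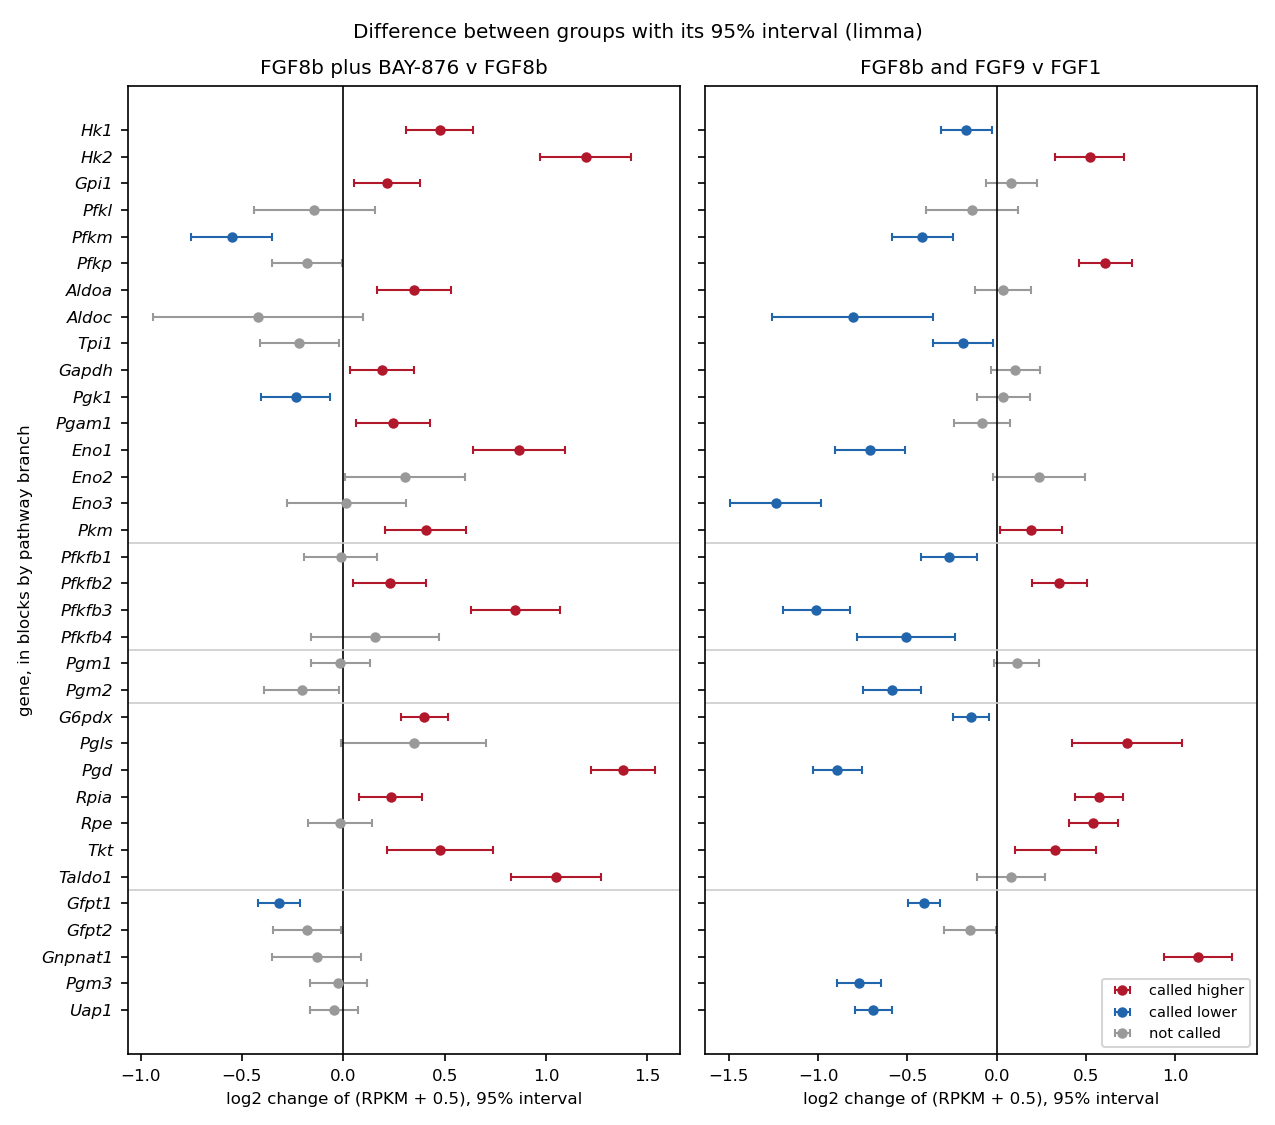
Log2 difference (horizontal axis) with its 95% interval for each of the 34 members, for FGF8b plus BAY-876 against FGF8b (left) and for FGF8b and FGF9 against FGF1 (right), red where called higher, blue where called lower and grey where not called. On the left Pgd (1.38), Hk2 (1.20) and Taldo1 (1.05) lie farthest to the right and Pfkm (-0.55) farthest to the left, and on the right Gnpnat1 (1.13) and Eno3 (-1.24) lie farthest out.

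Across the 5 groups, FGF8b plus BAY-876 held the highest mean for 14 members and FGF1 for 12, and control held the lowest mean for 17. The like counts over all tested genes were not taken, so nothing particular to the members is read from these. Within groups, single libraries were highest or lowest for many members. In FGF9 library 2 was highest for 19 of the 34 members and library 1 lowest for 22, and in FGF8b library 3 was highest for 23 and library 1 lowest for 19. The other groups had like skews, with control 1 highest for 20, FGF1 2 for 22 and FGF8b plus BAY-876 3 for 20. The counts by library were not taken over all tested genes either, so a shift of a whole library cannot be told apart from one of these members.

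Other genes around these pathways were counted in 3 lists, chosen with the members. Of 21 isoforms and side enzymes of glycolysis 11 were tested. Of these, 4 rose and 1 fell with FGF1, 5 rose and 2 fell with FGF8b and with FGF9, and 4 rose and 2 fell when BAY-876 was added. The shares of all tested genes that rose and fell were 19.3% and 15.1% with FGF1, 37.8% and 26.6% with FGF8b, 38.7% and 27% with FGF9, and 22.5% and 34.8% when BAY-876 was added. Beside these shares, nothing particular to any of the 3 lists is read from counts over so few genes. Tigar, a phosphatase of the phosphofructokinase activator (9630033F20Rik in the table), rose from 2.04 ± 0.204 RPKM in control to 3.73 ± 0.661 in FGF8b (0.72 ± 0.11, adjusted p = 3.07e-05) and 6.11 ± 0.611 with BAY-876 (0.65 ± 0.11 over FGF8b, adjusted p = 0.000115). Pgam5, a mitochondrial phosphatase named for its resemblance to Pgam1, was at 10.8 ± 0.619 in control, 18.5 ± 1.8 in FGF8b and 23.6 ± 0.80 with BAY-876. Pgm5, a relative of the phosphoglucomutases, fell from 1.12 ± 0.0764 RPKM in control to 0.54 ± 0.185 in FGF1 (adjusted p = 0.00035). Its mean was 0.0136 RPKM in FGF8b and 0.0263 in FGF8b plus BAY-876, and it was listed at 0 in every FGF9 library.

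Of 8 pentose phosphate side enzymes 5 were tested, and Tktl1, Tktl2 and Rbks, which reached at most 0.563 RPKM, were not. With FGF1 1 rose and 1 fell, with FGF8b 1 rose and 2 fell, with FGF9 1 rose and 3 fell, and 1 rose and 3 fell when BAY-876 was added to FGF8b, to be read against the same shares of all tested genes (19.3% and 15.1% with FGF1, for example). H6pd, the dehydrogenase of the endoplasmic reticulum that parallels G6pdx, fell from 20.8 ± 1.87 RPKM in control to 12.9 ± 1.14 in FGF8b (-0.67 ± 0.07, adjusted p = 9.82e-07) and 8.03 ± 0.408 with BAY-876 (-0.65 ± 0.07 against FGF8b, adjusted p = 2.39e-06), while G6pdx rose in the latter step. Prps1 and Prps2, which make the activated ribose used for nucleotides, moved apart with FGF8b, by 0.82 ± 0.06 and -0.83 ± 0.08 (adjusted p = 2.10e-08 and 1.33e-07).

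All 11 amino sugar and O-GlcNAc genes were tested. With FGF1 2 rose and 5 fell, with FGF8b 4 rose and 2 fell, with FGF9 3 rose and 2 fell, and 7 rose and 2 fell when BAY-876 was added to FGF8b. For FGF8b and FGF9 the rises lie near or below the shares of all tested genes (37.8% and 38.7%). The falls with FGF1 (45.5%, against 15.1%) and the rises with BAY-876 (63.6%, against 22.5%) lie above them, but over only 11 genes. Gnpda1, the deaminase that runs against GFAT, fell with FGF1 (-0.66 ± 0.09, adjusted p = 4.51e-05), rose with FGF8b (0.95 ± 0.09, adjusted p = 2.69e-07) and rose further with BAY-876, from 44.4 ± 1.27 to 75.3 ± 4.25 RPKM (0.75 ± 0.09, adjusted p = 5.55e-06). Renbp, an epimerase of amino sugars, went from 30.8 ± 2.77 to 90.5 ± 4.48 RPKM in that step (1.54 ± 0.08, adjusted p = 6.16e-10). Uap1l1, a relative of Uap1, was lower with FGF1 (-1.41 ± 0.10, adjusted p = 3.96e-08), where Uap1 was higher, and it rose when BAY-876 was added (1.07 ± 0.10, adjusted p = 3.25e-07).

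Each member had 3 to 24 transcript lines in the table, and the line used was 320 to 2788 bases long by a length inferred from the values. Among the called changes, every line with a mean of at least 1 RPKM had the sign of the line used, except for Pfkl with FGF1 and FGF8b (7 of 8 lines), Eno2 with FGF8b (18 of 19 lines) and Pfkfb2 with BAY-876 (8 of 10 lines against FGF8b and 9 of 10 against control). The lines of 1 gene share reads and are not independent of each other.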

How the data were processed

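RNA of 15 libraries (5 groups of 3) was sequenced from TruSeq RNA v2 libraries, per the labels' protocols, a kit that does not mark strand, so antisense or overlapping transcripts cannot be told apart. The submitters' processing notes name CASAVA and bcl2fastq, and the sources used here give no aligner, genome build or annotation. The deposited table, made by the authors, holds 168326 transcript lines with decimal commas and names no unit. All 15 value columns matched a sample by title. For 46002 Ensembl transcripts of known length (GENCODE vM21), low values were multiplied by length. They came out as whole multiples of 1 step per library in 94.1% to 94.6% of cases (tolerance 0.05). This shows a unit of reads divided by length, which was read as RPKM, and the depth rests on that reading. Lines whose symbol is their accession (23172) were not used.

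The members, the other lists and the marker lists were chosen with earlier results of these data known. Members given with every library value were, per comparison, the 4 largest called changes in each direction with no overlap between groups and a mean of at least 1 RPKM in 1 group, and 12 members followed throughout (Hk1, Hk2, Pfkl, Pfkfb3, Pfkfb4, Aldoa, Pgk1, Eno1, Pkm, G6pdx, Gfpt1 and Gfpt2). Levels were log2(RPKM + 0.5), with no further scaling, which understates changes of low genes. All 15 libraries entered 1 limma 3.58.1 fit (R 4.3.3, empirical Bayes with a trend, 10 residual degrees of freedom), tested on simulated data, with Benjamini-Hochberg adjustment over 13869 genes within each of 7 comparisons. Whole reads were recovered for 13869 genes (100%, within 0.02 read plus 2e-06 of the reads), each at the smallest length that made all 15 libraries whole. This length equalled the annotated one in 90.8% of 3475 lines compared, so some read counts may be off. The recovered reads gave the voom alternative, which called 4632, 8860, 9198 and 8008 genes for FGF1, FGF8b and FGF9 against control and for BAY-876 against FGF8b. Correlations of libraries across genes, which are not independent replicates, were 0.991 to 0.997 within groups and 0.879 to 0.996 between groups. Sequences and positions are from RefSeq on GRCm38.p6, which may not be the build of the table. Alternatives were other pseudocounts (0.1 and 1), no filter, the RefSeq line, summed lines, trimmed-mean scaling (30%), a replicate block, voom and leaving out each library. Values of some genes of the other lists are not reported here.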

Additional observations from a re-analysis of the deposited data

How the results depend on the processing

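No member change turned its direction with a call under any alternative run. Pseudocounts of 0.1 and 1 left all 238 member changes on their side of the threshold. Losses and gains of a call were 6 and 0 with no filter on low values, 3 and 13 with the RefSeq line, 8 and 5 with summed lines, 5 and 5 with trimmed-mean scaling and 0 and 5 with voom. The count of members lower with FGF1, 2, became 4 with summed lines. The count lower with BAY-876 against FGF8b, 3, became 6 with the RefSeq line and 5 with voom, and ran from 2 to 7 over the fits that each left out 1 library. Over the same fits the counts of rises ran from 20 to 22 with FGF1, 18 to 19 with FGF8b, 17 to 19 with FGF9, 10 to 16 with BAY-876 against FGF8b, 23 to 24 with BAY-876 against control and 8 to 9 for FGF8b and FGF9 against FGF1, where the falls ran from 12 to 17. The cause of these changes was not tested, apart from the fewer libraries of each such fit.

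The labels do not say if replicate numbers pair the libraries, and correlations of their deviations do not decide it. Of 30 same-number pairs 11 correlated above 0.1 (from -0.443 to 0.534). For 2 of 15 libraries the nearest one in each other group bore the same number. With the replicate number as a block, 4 member changes gained a call and none lost one: Eno2 (0.30, adjusted p = 0.0237) and Gfpt2 (-0.18, adjusted p = 0.0273) with BAY-876 against FGF8b, and Eno2 (0.24, adjusted p = 0.0331) and Gfpt2 (-0.15, adjusted p = 0.0285) for FGF8b and FGF9 against FGF1. Scaling by trimmed means moved the median of all genes by at most 0.07 on the log2 scale. Depth limits most the members with few reads over the 3 libraries of a group, such as Aldoc (221) and Hk2 (228) in control and Pfkfb3 (277) in FGF8b.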
